A study of Drosophila melanogaster with 9 samples.

Results

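The input libraries hold the RNA of whole-embryo extract before any immunoprecipitation, and they describe which transcripts wild-type Drosophila melanogaster embryos contained between 0 and 3 h after egg laying. They were taken by their label as input, which 3 of the 9 libraries of the series carry. Each lists the same 6440 genes. The other 6 libraries are immunoprecipitates of ORB2, a CPEB-family RNA-binding protein, and of a control antibody fragment, and none of their values was used. The embryos were wild type in genotype, were laid and aged at 25°C, and no treatment is given for them. They were dechorionated and crushed, and the extract was cleared by centrifugation, so RNA that pellets with debris is not represented. Total RNA was isolated with TRIzol, ribosomal RNA was depleted, and stranded libraries were read as pairs of 125 nt. Because RNA was depleted of rRNA and not selected for poly(A) tails, transcripts with short or no tails were kept. The labels do not say whether the 3 inputs came from separate embryo collections, so the spread between them may be technical. In such pooled embryos, fewer cells containing a transcript cannot be told apart from less of it per cell.

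As background, a Drosophila egg is loaded by the mother with the mRNA for the first nuclear divisions and for the body axes. The zygotic genome is nearly silent at first. Maternal transcripts are then degraded while zygotic transcription begins, with a small first set of mostly short genes followed by a broad activation around cellularization. A collection that spans egg laying to early gastrulation therefore mixes embryos before, during and after this handover.

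Abundance is given in TPM, a transcript abundance that divides each gene's signal by its transcript length and scales each library to the same total. The listed genes held 99.86%, 99.91% and 99.92% of the 1000000 TPM of inputs 1, 2 and 3. Genes that were quantified but are outside the table therefore held at most 1421, 923 and 838 TPM together. Which genes were quantified is not given, and a gene left out before scaling is not covered by this bound. Every listed value exceeded 1 TPM, the lowest being 1.001. TPM keeps no sequencing depth, so no counting interval can be given and the spread over the 3 inputs is the error used throughout. With 1 group no test was possible, and 2 genes are called apart only where their ranges over the inputs did not overlap.

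A small number of genes held a large part of the pool. The 100 most abundant genes of each library held 49.0% of listed TPM in input 1, 44.4% in input 2 and 50.2% in input 3 (47.9% ± 3.05, SD, n = 3). An equal share of 50% was reached with 107, 147 and 99 genes. At the other end, the lower 3220 genes held 5.28%, 5.65% and 4.08%. The median gene had 35.1, 42.0 and 31.5 TPM, and 150, 141 and 138 genes reached 1000 TPM. These figures depend on scaling by length: by the deposited normalized counts, which are not divided by transcript length, the 100 leading genes held 26.6% on average and 480 genes were needed for 50%.

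**Figure D1:**
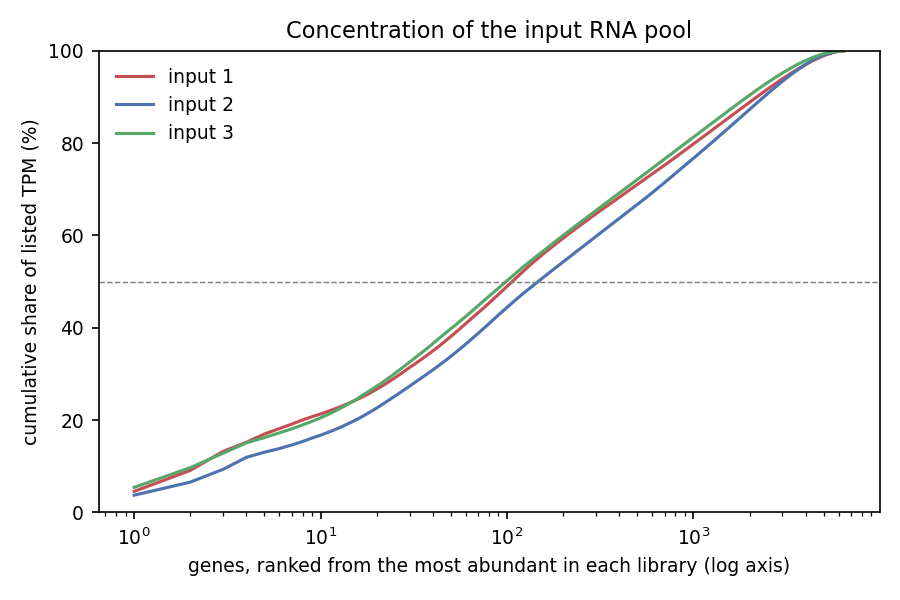
Cumulative share of listed TPM (vertical axis, percent) against the number of genes, ranked within each library from the most abundant (horizontal axis, log scale), with 1 line per input. The dashed line marks 50%, crossed at 107 genes in input 1, 147 in input 2 and 99 in input 3.

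The 20 most abundant genes were 11 cytoplasmic ribosomal protein genes, 6 replication-dependent histone genes and 3 others. The highest was the histone H3 copy His3:CG33803 (FBgn0053803), a building block of the nucleosome, with 45483, 37319 and 54178 TPM. RpL41, which encodes the smallest protein of the large ribosomal subunit, followed with 41185, 25878 and 42704 TPM. The histone H4 copy His4:CG33883 had 45430, 27786 and 22430 TPM. The H2A copy His2A:CG33832 had 19685, 28238 and 31262 TPM. These 4 led in all inputs, in an order that differed between them. Next by mean were His2A:CG33808, RpL39, His2B:CG17949 and RpL29. Of the 20, 17 have a longest transcript of at most 1000 nt, and 15 were among the 20 highest of every library. The order within the 20 was mostly not resolved, since 19 overlapped in range with the gene next below. The other was one of a pair of near-identical H2A copies, whose single values are uncertain.

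The 3 leading genes that are neither histones nor ribosomal proteins were dhd, awd and Tctp. The gene dhd (FBgn0011761, X:5312171-5313125 in BDGP6.54, a single exon) encodes deadhead, a thioredoxin of the female germline that acts on sperm chromatin at fertilization. It had 5388, 7506 and 7596 TPM and was ranked ninth by mean. The nucleoside diphosphate kinase gene awd (FBgn0000150, 3R:31745172-31746077) had 5869, 6194 and 6186 TPM, the smallest relative spread of the 20. Tctp (FBgn0037874, 3R:11210247-11211898), which encodes the translationally controlled tumor protein, had 5188, 5795 and 6004 TPM. The ranges of these 3 genes overlapped. Further genes outside the classes below that stood among the 100 highest included Df31, a chromatin decondensation factor, with 3117, 2899 and 3175 TPM. Fkbp12, a peptidyl-prolyl isomerase, had 2955, 2789 and 3349 TPM, and its range overlapped that of Df31. The mitochondrial ADP/ATP carrier gene sesB had 1902, 2313 and 2471 TPM, although it shares its strand and locus with Ant2, so reads may be divided between them. The glycolytic gene Gapdh2 had 1284, 2516 and 1857 TPM.

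Genes at the middle and the bottom of the ranking show the scale. RabX6, next to the median gene, had 37.1, 37.3 and 37.1 TPM. The lowest mean belonged to Rbp9, which encodes an ELAV-family RNA-binding protein, with 1.07, 1.05 and 1.07 TPM. The gene orb2, whose protein the study captured, had 4.98, 4.40 and 6.23 TPM and was ranked 5887 of 6440. Its locus overlaps CG43783 on the same strand, which makes that value uncertain. Its paralogue orb had 18.3, 20.6 and 11.1 TPM, above orb2 in every input.

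Cytoplasmic ribosomal protein genes were the largest class, with 84 of 88 annotated genes listed. They held 28.0%, 26.0% and 28.3% of listed TPM (27.4% ± 1.28, SD, n = 3) and filled 59 of the 100 highest ranks by mean. Their median was 2498, 2510 and 2457 TPM, against 35.1, 42.0 and 31.5 TPM for all listed genes. Large-subunit genes (48 listed) held 18.3%, 16.3% and 18.7%, and small-subunit genes (36 listed) held 9.75%, 9.69% and 9.66%. The small-subunit share was the steadier, with an SD of 0.0423 percentage points against 1.28 for the large subunit, which contains RpL41. Most members lay close to each other, with the middle 50% of their means between 1470 and 3800 TPM, and 74 of 84 at 1000 TPM or more. Exceptions lay on both sides. RpL41, RpL39 and RpL29 were far above, with means of 36589, 10301 and 8608 TPM. Others were low. RpS19b, a second copy of the RpS19 gene, had 2.37, 1.12 and 2.39 TPM. RpS15Ab had 198, 137 and 152 TPM, and RpL22, overlapped by a long noncoding RNA gene, had 320, 174 and 93.2 TPM.

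Replication-dependent histone genes held 17.6%, 13.3% and 16.6% of listed TPM (15.8% ± 2.25, SD, n = 3). Their mRNAs end in a stem-loop and carry no poly(A) tail, and the genes lie in a tandem array of near-identical copies on 2L. Of 111 annotated copies, 27 are listed, so how the reads were divided among copies decides each copy's value and only sums by histone are compared. Histone H3 held 4.88%, 3.99% and 5.81%, and H2A held 4.27%, 4.21% and 5.00%. H4 held 5.01%, 2.99% and 2.40%, and H2B held 2.97%, 1.78% and 3.16%. The ranges of H3 and H2A overlapped, as did those of H4 and H2B. The linker histone H1 held 0.424%, 0.284% and 0.192%, below all 4 core histones in every input. Sums over the 4 core histones were not ordered alike: H4 was the highest in input 1 and the third in input 2. Single copies varied more, as in His2B:CG33870, which had 2047, 147 and 1076 TPM.

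Histone variants and chromatin proteins encoded outside the array were also abundant, with all 15 entries listed and 1.26%, 1.07% and 1.16% of listed TPM. His4r, which encodes histone H4 from a gene outside the array, had 3347, 2750 and 3775 TPM. HmgD, a high-mobility-group protein of early embryonic chromatin, had 1900, 1642 and 1898 TPM. The range of His4r lay wholly above that of HmgD. BigH1, the embryonic linker histone, had 670, 804 and 861 TPM. The listed copies of the somatic linker histone H1 summed to 4233, 2841 and 1918 TPM, above BigH1 in every input. The histone H3.3 gene His3.3B had 1286, 974 and 1014 TPM, and its partner His3.3A, with 907, 864 and 980 TPM, overlapped it in range. His2Av, the H2A variant, had 1557, 630 and 712 TPM and stood out in input 1. The lowest of these genes was Caf1-180, a chromatin assembly factor subunit, at 22.0, 16.4 and 6.80 TPM.

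Energy metabolism came next. Of 90 nuclear genes for oxidative phosphorylation, 68 are listed, and they held 3.90%, 3.27% and 3.62% of listed TPM. Every listed member had a mean of at least 69.4 TPM, above the median gene. ND-MLRQ, named for a complex I subunit, led with 2691, 1615 and 2293 TPM. The ATP synthase gene sun followed with 1832, 1583 and 2248 TPM, and ATPsynF of the same complex had 1496, 1334 and 1767 TPM. The ranges of these 3 genes overlapped, and input 2 was the lowest in each. SdhB of complex II closed the list with 70.9, 76.1 and 61.1 TPM. No mitochondrially encoded gene is listed in the table analysed here.

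Protein synthesis beyond the ribosome took less. Translation factors (44 of 54 listed) held 1.78%, 1.73% and 1.43%. Elongation factor eEF2, which moves the ribosome along the mRNA, had 1592, 2576 and 1696 TPM. The exchange factor subunit eEF1beta had 1828, 1900 and 1593 TPM. The gene eEF5, which encodes the factor known as eIF5A in mammals, had 2871, 935 and 1220 TPM. The RNA helicase gene eIF4A had 1350, 1764 and 1700 TPM. All 4 overlapped in range, with eEF5 alone highest in input 1. The lowest member was eEFSec, the selenocysteine elongation factor, which averaged 2.52 TPM. The 18 aminoacyl-tRNA synthetase genes, all listed, held 0.122%, 0.219% and 0.147%, and 17 of the 18 were highest in input 2. The median of all listed genes was also highest there, at 35.1, 42.0 and 31.5 TPM. With each pair of inputs centred on its median ratio over all genes, the median log2 ratio of the synthetase genes was -0.66 for input 1 over input 2. For input 2 over input 3 it was 0.37. ThrRS led with 169, 327 and 246 TPM. ArgRS was lowest with 16.3, 7.17 and 1.74 TPM, the only one not highest in input 2. Mitochondrial ribosomal proteins (72 of 73 listed) held 0.861%, 0.868% and 0.915%, the share with the smallest SD of the 12 classes, at a median of 93.3, 108 and 106 TPM.

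Protein turnover and folding were represented by the proteasome and the chaperones. Proteasome genes (34 of 48 listed) held 1.45%, 1.65% and 1.65%. The catalytic subunit gene Prosbeta5 had 1054, 1204 and 1404 TPM. Prosalpha5, a subunit of the outer ring, had 1092, 1087 and 1327 TPM, which overlapped it. The lowest was Rpt3R, a second copy of the ATPase gene Rpt3, at 2.70, 1.96 and 3.10 TPM. Chaperones (27 of 36 listed) held 1.02%, 1.65% and 1.35%. Of the 27, 19 were lowest in input 1, against 2686 of all 6440 listed genes (41.7%). The small heat shock gene Hsp26, known for maternal deposition, led with 2743, 3888 and 4191 TPM. Hsc70-4, the constitutive HSP70 gene, had 1541, 2426 and 1717 TPM, wholly below Hsp26. Hsp83, the HSP90 gene, had 687, 1407 and 829 TPM. The stress-inducible gene Hsp68 was near the floor of the table, with 1.63, 2.20 and 2.65 TPM. Of a near-identical HSP70 family, Hsp70Bb had 1.75, 2.88 and 1.98 TPM, but Hsp70Ab had 44.5, 81.5 and 39.0 TPM. Reads may be divided among such copies, so their single values are uncertain.

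**Figure D2:**
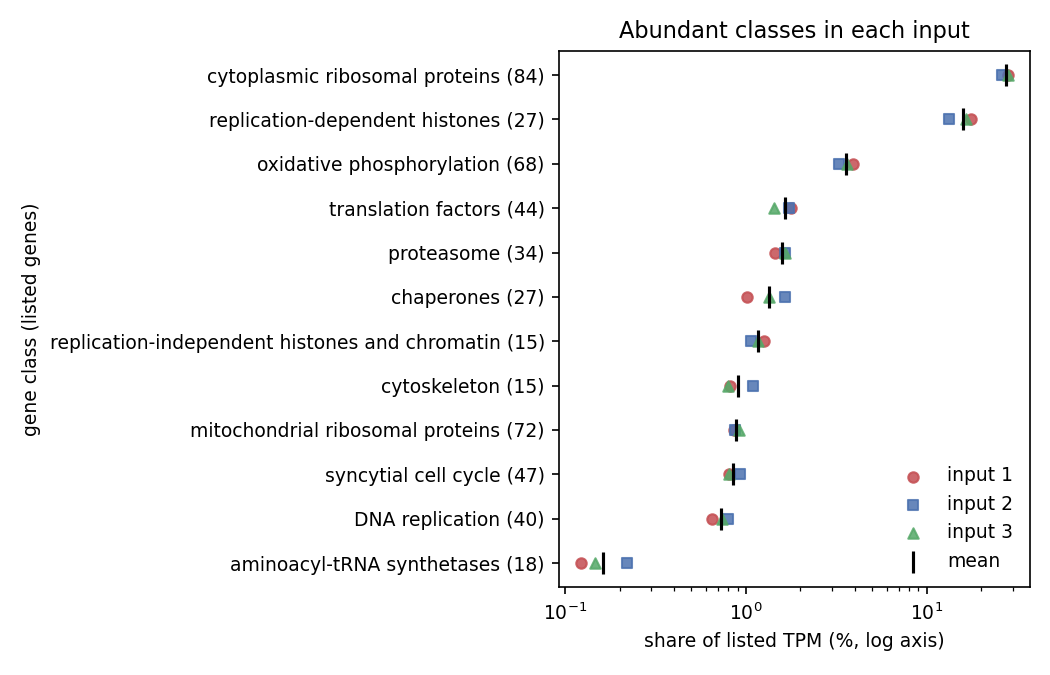
Share of listed TPM held by each class (horizontal axis, percent, log scale), with 1 symbol per input, a black bar at the mean and the number of listed genes in brackets. Ribosomal protein genes lay between 26.0% and 28.3% and histones between 13.3% and 17.6%, and every other class plotted lay below 4%.

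The genes of the rapid nuclear divisions lay mostly above the median gene, with 35 of 47 at or above it by mean TPM. All 47 cell cycle genes chosen for the syncytial divisions are listed, and they held 0.805%, 0.929% and 0.804% of listed TPM. Their median was 96.3, 82.5 and 73.6 TPM, against 35.1, 42.0 and 31.5 TPM for all listed genes. The mitotic cyclin gene CycB led with 1340, 1862 and 1625 TPM. CycA, the second mitotic cyclin, had 777, 1036 and 791 TPM, wholly below CycB. The PNG complex, which drives egg activation and the first divisions, has its kinase encoded by png, at 90.0, 167 and 131 TPM. Its cofactor gnu had 445, 650 and 502 TPM and its cofactor plu had 368, 281 and 361 TPM, both above png in every input. The checkpoint kinase gene grp (Chk1) had 391, 556 and 471 TPM, and lok (Chk2), with 306, 494 and 386 TPM, overlapped it in range. Reads of grp may include those of squ, which overlaps it on the same strand. Both Cdc25 phosphatase genes lay wholly below grp and lok. The phosphatase gene stg had 84.5, 69.8 and 72.3 TPM, and twe had 106, 51.0 and 44.8 TPM. Cdk1, the mitotic kinase, had 267, 77.2 and 81.1 TPM. The securin gene pim showed a like pattern, with 296, 68.1 and 73.6 TPM, and both were highest in input 1. The lowest was the spindle checkpoint kinase gene Mps1 at 9.84, 6.26 and 3.60 TPM.

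Genes of DNA replication (40 of 44 listed) held 0.652%, 0.800% and 0.735%, with 27 of the 40 highest in input 2. The median of all listed genes, 35.1, 42.0 and 31.5 TPM, was highest in input 2 as well. The median centred log2 ratio of the replication genes was -0.32 for input 1 over input 2 and 0.15 for input 2 over input 3. The dUTPase gene led with 1784, 1774 and 2125 TPM. The ribonucleotide reductase gene RnrS had 531, 774 and 778 TPM, wholly below it. The replication inhibitor geminin had 610, 388 and 387 TPM and was highest in input 1. The helicase subunit gene Mcm5 had 128, 232 and 162 TPM. The catalytic polymerase gene DNApol-alpha180 was the lowest, at 7.48, 2.36 and 1.18 TPM. Cytoskeletal genes (15 of 23 listed) held 0.812%, 1.09% and 0.800%. The beta-tubulin gene betaTub56D had 2091, 4283 and 2959 TPM, and the alpha-tubulin gene alphaTub84B had 1248, 2131 and 1446 TPM. The cytoplasmic actin gene Act5C had 1269, 1921 and 1388 TPM. All 3 were highest in input 2, as were 10 of the 15 genes. The other 5 were highest in input 1, among them tsr, with 2063, 1028 and 967 TPM. For the cytoskeletal genes the median centred log2 ratio was -0.15 for input 1 over input 2 and 0.11 for input 2 over input 3. The maternal tubulin gene alphaTub67C had 301, 555 and 400 TPM, below alphaTub84B in every input. The lowest was zip, the myosin II heavy chain, at 12.7, 7.65 and 3.70 TPM.

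Maternal patterning transcripts outweighed early zygotic ones in every input. The early zygotic list (40 of 60 entries listed) summed to 1186, 1022 and 896 TPM, or 0.119%, 0.102% and 0.0897% of listed TPM (0.104% ± 0.0146, SD, n = 3). The maternal patterning list, the union of genes for the anterior-posterior axis, the pole plasm and the dorsal-ventral axis (48 of 54 listed), summed to 7224, 9025 and 7225 TPM, or 0.723%, 0.903% and 0.723% (0.783% ± 0.104, SD, n = 3). Its 2 highest members entered through the pole plasm list and are also on the cell cycle or chaperone list. These were CycB, with 1340, 1862 and 1625 TPM, and Hsp83, with 687, 1407 and 829 TPM. The anterior-posterior list alone, which holds neither, summed to 3403, 4482 and 3747 TPM, above the zygotic sum in every input. The zygotic sum was 0.164, 0.113 and 0.124 of the full maternal sum. The 20 early zygotic entries that are not listed could, if they were quantified, change this ratio only within limits. If all TPM outside the table belonged to them, the zygotic sum would reach 2607, 1946 and 1734 TPM, still 0.361, 0.216 and 0.240 of the listed maternal sum. The listed early zygotic genes had a median of 7.74, 5.18 and 4.46 TPM, against 38.1, 44.6 and 31.6 TPM for the listed maternal ones and 35.1, 42.0 and 31.5 TPM for all listed genes. Both medians leave out entries that are not listed, so they say nothing of the full lists.

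Both sums rested on few genes. The 6 highest early zygotic genes held 64.1%, 61.2% and 65.2% of theirs, and the 6 highest maternal patterning genes 55.2%, 66.8% and 68.2%. Sry-alpha, which organizes actin during cellularization, had 150, 213 and 201 TPM, and overlaps Sry-beta on the same strand. The zinc-finger gene term had 111, 164 and 152 TPM. Z600, also called frühstart, an inhibitor of mitosis that shares its locus and strand with gdl, had 189, 72.2 and 79.1 TPM. The insulator factor gene Elba2 had 116, 78.6 and 63.5 TPM. The lipid droplet transport gene halo had 119, 50.7 and 28.3 TPM and the bHLH gene amos had 75.7, 47.1 and 61.2 TPM. Sry-alpha and term were lowest in input 1, whereas the other 4 were highest there, and the ranges of Sry-alpha, term and Z600 overlapped.

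Other cellularization genes had lower means. The membrane growth gene slam had 31.2, 60.8 and 14.8 TPM, a range that overlapped those of halo and amos. The contraction regulator bnk had 39.9, 24.5 and 19.3 TPM, and nullo had 20.8, 16.1 and 10.8 TPM. Dorsal-ventral signaling was represented by the BMP ligand scw, at 23.5, 24.5 and 16.2 TPM, and the BMP modulator tsg, at 35.8, 37.5 and 30.6 TPM. The mesoderm regulator twi had 8.58, 8.12 and 8.19 TPM, a narrow range, with a noncoding RNA gene overlapping it, and sna, a second mesoderm regulator, lay below it in every input with 4.94, 2.04 and 1.59 TPM. Of 13 gap gene entries 6 are listed, all with a mean of at most 10.6 TPM. The gap gene hb, which has both maternal and zygotic transcripts, led with 20.2, 6.71 and 4.77 TPM. The abdominal gap gene kni had 4.82, 5.96 and 5.30 TPM. The terminal gap gene tll had 5.55, 3.71 and 2.51 TPM, and gt had 4.33, 2.74 and 1.46 TPM. Of 9 pair-rule entries 4 are listed, each highest in input 1. Among them ftz had 3.43, 1.16 and 1.79 TPM, and run had 4.79, 1.96 and 2.57 TPM. The X-linked sex signal gene sisA had 39.9, 31.2 and 30.5 TPM. The lowest early zygotic member was sog, a BMP antagonist, at 1.17, 1.62 and 1.66 TPM. Among the entries that are not listed in the table analysed here were Kr, eve, dpp and prd.

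Many early zygotic genes have a simple structure. Of the 40 listed, 17 (42.5%) have a transcript with a single exon. The shares were 4.17% of maternal patterning genes, 3.57% of ribosomal protein genes, 100% of the 27 histone copies and 11.4% of all 6422 placed genes. Among the 10 highest early zygotic genes 7 have one, as do 7 of the 10 highest of all placed genes. The 40 listed early zygotic genes had a median spliced length of 1722 nt, against 2729 nt for maternal patterning genes and 2025 nt for all placed genes.

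**Figure D3:**
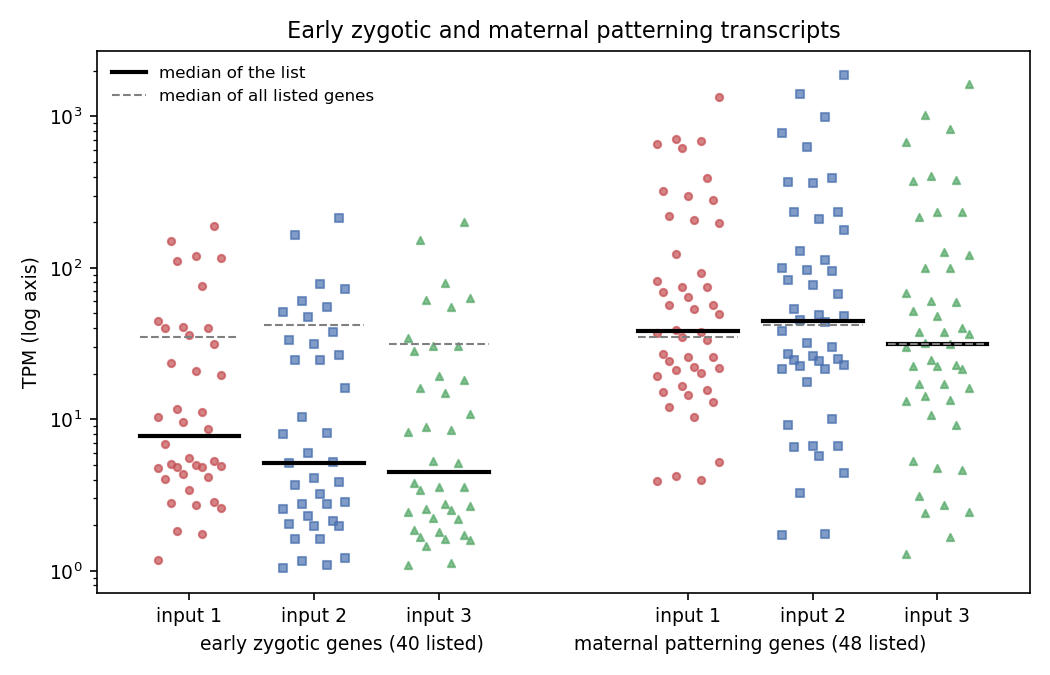
TPM of each listed early zygotic gene (left) and maternal patterning gene (right) in each input (vertical axis, log scale), with 1 point per gene. Black bars are list medians and dashed lines the medians of all listed genes. The zygotic medians of 7.74, 5.18 and 4.46 TPM lay below the dashed lines, and the maternal medians of 38.1, 44.6 and 31.6 TPM lay close to them.

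Genes of the pole plasm and germ cells (19 of 21 listed) held 0.463%, 0.563% and 0.466%. CycB, whose mRNA is localized to the posterior pole, and Hsp83 were the highest of this list. The translational repressor gene nos (FBgn0002962), which specifies the abdomen and acts in germ cells, had 658, 991 and 1024 TPM. The gene pgc, which silences transcription in pole cells, had 613, 630 and 675 TPM, within a narrower range. The gene osk, which nucleates the pole plasm, had 91.8, 77.0 and 31.3 TPM, although lncRNA:osk overlaps it on the same strand. The germline helicase gene vas, which overlaps solo, had 49.5, 94.9 and 59.0 TPM. Both lay wholly below nos and pgc. The piRNA-pathway gene aub had 37.5, 53.8 and 40.3 TPM, and piwi, with 27.0, 21.4 and 10.6 TPM, lay below it in every input. The lowest was tud, the founding Tudor-domain gene, at 5.25, 1.72 and 1.29 TPM.

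For the anterior-posterior axis, all 25 entries are listed, holding 0.341%, 0.449% and 0.375%. After nos and pgc stood exu, which is needed to localize bicoid mRNA, at 299, 774 and 401 TPM. The gene mago, a subunit of the exon junction complex needed for oskar localization, had 390, 366 and 375 TPM. The wide range of exu enclosed the narrow one of mago. The anterior determinant bcd itself had 37.3, 43.8 and 37.7 TPM, below both. The lowest was trk, a component of terminal signaling, at 3.94, 1.75 and 1.66 TPM. For the dorsal-ventral axis (12 of 16 listed), the RNA-binding protein gene sqd led with 279, 362 and 378 TPM. The Dorsal inhibitor cact had 207, 178 and 100 TPM, and the kinase gene pll had 75.1, 129 and 122 TPM. The serine protease gene ea had 57.0, 99.2 and 68.0 TPM. The receptor gene Tl had 25.8, 24.3 and 21.4 TPM, and the transcription factor gene dl, with 22.0, 24.6 and 16.0 TPM, overlapped it in range. The TGF-alpha ligand grk was the lowest at 4.20, 4.42 and 2.44 TPM.

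Regulators of maternal mRNA translation and decay (39 of 43 listed) held 0.503%, 0.539% and 0.469%. Besides nos and gnu, tral, an RNP granule component, had 327, 454 and 288 TPM. The hnRNP gene Hrb27C had 323, 353 and 350 TPM, within the range of tral. The gene smg, whose protein recruits the deadenylase to maternal mRNAs, had 144, 122 and 96.3 TPM. Its partner cup had 77.2, 108 and 72.8 TPM, below smg in every input, although CG34310 overlaps cup on its strand. The repressor gene brat had 86.2, 150 and 113 TPM, and pum, its partner in repression, had 21.9, 26.0 and 22.5 TPM, wholly below brat. The lowest was the deadenylase cofactor gene Not11, at 7.37, 5.76 and 1.98 TPM. Of 6 entries for activators of the zygotic genome, 5 are listed. The entry that is not, opa, is also on the early zygotic and pair-rule lists. Clamp, a zinc-finger pioneer factor, had 176, 222 and 249 TPM. Trl, the GAGA factor, had 82.6, 87.2 and 92.9 TPM, and overlaps CG42507 and Tsen34 on its strand. The pioneer factor gene zld (Zelda) had 21.6, 15.6 and 15.3 TPM. Clamp, Trl and zld did not overlap in range. The coactivator gene nej had 27.7, 21.6 and 13.2 TPM and Stat92E, a transcription factor gene, had 45.0, 11.5 and 9.36 TPM, and both overlapped zld.

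Markers of tissues that form later or belong to the mother were nearly all outside the table. None of 16 segment polarity and Hox entries, 10 neuronal entries or 12 digestive enzyme entries is listed, and none of 23 eggshell and yolk entries, which mark follicle cells and retained eggs. Of 15 muscle entries Tm1 alone is listed, a tropomyosin gene with cytoplasmic forms, at 138, 83.2 and 62.3 TPM. Of 18 cuticle entries Cht2, a chitinase, is listed at 43.7, 89.3 and 68.1 TPM, and of 10 hemocyte entries crq, a scavenger receptor, at 38.9, 39.3 and 19.3 TPM. What the missing entries held can be bounded only by the 1421, 923 and 838 TPM left for all unlisted genes, and only if they were quantified.

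By chromosome arm, 2L held the largest share, 32.9%, 29.1% and 31.8% of listed TPM (31.3% ± 1.95, SD, n = 3), and all 27 listed histone genes lie there. With the histones left out, 2L held 18.4%, against 18.0% of placed genes. Arm 2R then led with 27.6% of TPM, against 20.0% of genes. That share keeps RpL41, RpL39 and RpL29, which lie on 2R and had means of 36589, 10301 and 8608 TPM. The X held 12.4%, 14.6% and 13.3% with histones included. The small chromosome 4 held 0.638%, 0.452% and 0.468%, and its 44 listed genes had a median of 13.9 TPM, the lowest of the arms.

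Inputs 2 and 3 were more alike than either was to input 1. Across the 6440 genes Spearman's rho was 0.915 for inputs 1 and 2, 0.935 for inputs 1 and 3 and 0.977 for inputs 2 and 3. Genes share their library, so these are descriptions. With each pair centred on its median ratio, 84.8%, 84.5% and 95.7% of genes lay within 2-fold. Over all 3 libraries as deposited, 4585 genes (71.2%) lay within 2-fold, and 321 were over 4-fold apart. The high ranks were the steadier: 91.0% of the 100 highest genes by mean lay within 2-fold in all 3 inputs, against 55.1% of those ranked 4001 to 6440. Of the 100 highest genes of each library, 83 were shared by all 3. By class, 94.0% of ribosomal protein genes and 91.7% of mitochondrial ribosomal protein genes lay within 2-fold, against 57.5% of early zygotic genes, 58.3% of maternal patterning genes and 33.3% of histone copies.

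Genes far above both other inputs were found mostly in input 1. Their part in the lower agreement of input 1 was not tested. With libraries scaled to equal medians, 118 genes (1.83%) were at least 4-fold higher in input 1 than in both other inputs, and 0 were at least 4-fold lower. Input 2 was at least 4-fold higher than both others in 0 genes and lower in 12 (0.186%). Input 3 was higher in 1 gene (0.0155%), CG33502, and lower in 1 gene (0.0155%), CG32857. The 118 genes held 0.749% of listed TPM in input 1, 0.144% in input 2 and 0.112% in input 3. They had a median spliced length of 2157 nt, against 2025 nt for all placed genes. Scaling by the median ratio of each pair gave 130 genes, and no scaling gave 107.

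Several of these genes act in RNA regulation and translation. The gene me31B (2L:10239341-10242172), a DEAD-box helicase of maternal ribonucleoprotein granules, had 712 TPM in input 1, 112 in input 2 and 60.3 in input 3. Not3, a subunit of the CCR4-NOT deadenylase, had 26.8, 5.02 and 2.14 TPM. Paip2, a repressor that binds poly(A)-binding protein, had 36.5, 2.44 and 3.09 TPM. Initiation factors were among them as well. The helicase cofactor gene eIF4B had 122, 18.2 and 18.0 TPM, and eIF5, which acts in start codon selection, had 127, 20.4 and 25.6 TPM. The scaffold gene eIF4G1 had 21.2, 4.24 and 4.44 TPM. The gene eIF5 overlaps CG46312 on its strand. In each initiation factor, inputs 2 and 3 lay near each other, whereas the high value of input 1 is what chose them. The regulators of maternal mRNA contributed 3 genes of 39 (7.69%) to the 118 and the translation factors 3 of 44 (6.82%), against 1.83% of all genes, and eIF4G1 is on both lists. Shorter lists gave higher shares from 1 gene each: 1 of 12 maternal dorsal-ventral genes (8.33%) and 1 of 5 activators of the zygotic genome (20.0%). Whether any list was over-represented was not tested. None came from the 40 early zygotic, 84 ribosomal protein, 27 chaperone or 27 histone genes. At 1.83%, each of these lists is too short for that to set it apart from all genes.

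Further genes of the 118 were named after their values were seen. Casein kinase 2 had both subunits among them. Its catalytic subunit gene CkIIalpha had 132, 11.7 and 8.38 TPM, and its regulatory subunit gene CkIIbeta had 60.7, 12.9 and 7.63 TPM. The dynein light chain gene ctp had 173, 14.1 and 15.4 TPM, and the dynein regulator nudE had 44.3, 4.58 and 2.83 TPM, with CG46387 overlapping nudE on its strand. High values in input 1 are what chose these genes. The phosphatase gene PRL-1 had 42.9, 3.94 and 3.37 TPM, although CG46309 overlaps it on its strand. The nucleolar gene mod had 258, 47.8 and 17.9 TPM. The telomere capping gene cav had 56.9, 9.70 and 3.68 TPM. The calmodulin gene Cam showed the pattern at a higher level, with 285, 64.7 and 52.1 TPM, and a long noncoding RNA gene overlaps it on its strand. The largest ratio of input 1 over input 2 belonged to CG10465, with 134, 6.88 and 12.1 TPM and a centred log2 ratio of 4.53. The largest of input 1 over input 3 belonged to CkIIalpha, with a centred log2 ratio of 3.92. Both comparisons cover genes of mean TPM at least 10.

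**Figure D4:**
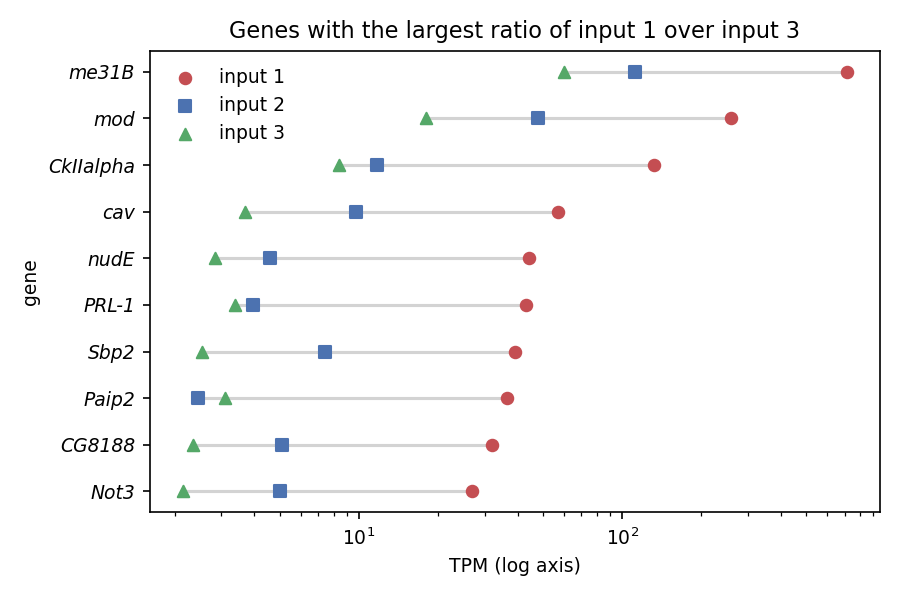
TPM in each input (horizontal axis, log scale) of the 10 genes of mean TPM at least 10 with the largest centred ratio of input 1 over input 3. Input 1 is the highest by the way they were chosen, from 26.8 TPM for Not3 to 712 TPM for me31B, and inputs 2 and 3 lie to its left.

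In the opposite direction the differences were smaller. The largest deficit of input 1 against input 2 was in Pi3K59F, the Vps34 lipid kinase, with 4.35, 19.1 and 12.1 TPM and a centred log2 ratio of -1.88, and it overlaps CG30184 on its strand. CG6126 followed with 5.16, 17.6 and 10.3 TPM. Against input 3, CG33502 showed the largest deficit, with 11.5, 17.9 and 99.4 TPM. This gene stands beside CG32857, with 43.2, 75.7 and 5.76 TPM, and CG32500, with 12.7, 37.7 and 12.0 TPM, within X:21609357-21623750. The 3 genes have 3 exons and a 3′UTR of 151 nt each. Their sum of 67.4, 131 and 117 TPM varied less than CG33502 and CG32857 alone, and their single values are uncertain. Input 2 was low for several H2B copies. His2B:CG33870 had a centred log2 ratio of input 2 over input 3 of -3.23 and His2B:CG33872 one of -3.22.

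Most early zygotic genes had their highest value in input 1. Of the 40 listed, 29 had their highest value there, against 2130 of all 6440 listed genes (33.1%) and 20 of the 48 maternal patterning genes. Their median centred log2 ratio was 0.76 for input 1 over input 2, 0.51 for input 1 over input 3 and -0.21 for input 2 over input 3. The summed zygotic share was also highest in input 1, at 0.119%. Inputs 2 and 3, at 0.102% and 0.0897%, stood in the opposite order to the centred median of the early zygotic genes. Without centring, that median log2 ratio of input 2 over input 3 was 0.15, in the order of the shares. Centring subtracted 0.36, the median over all listed genes. Ratios also moved with abundance: Spearman's rho with mean TPM was -0.14 for input 1 over input 2, -0.38 for input 1 over input 3 and -0.34 for input 2 over input 3. Of all genes ranked 4001 to 6440 by mean, 1121 of 2440 (45.9%) were highest in input 1, with centred medians of 0.20 and 0.41 over inputs 2 and 3. In that range lie 28 of the early zygotic genes, of which 22 were highest in input 1, with centred medians of 0.86 and 0.57. The part that abundance had in these values was not tested. In the other direction, chaperone genes had centred medians of -0.63 and -0.46 and aminoacyl-tRNA synthetase genes of -0.66 and -0.12 for input 1 over inputs 2 and 3.

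Ratios that involve input 2 moved with transcript length. Across 6422 genes that share these libraries, the ratio of input 2 over input 3 had a Spearman's rho of 0.52 with coding length and 0.45 with spliced length. For input 1 over input 2 these were -0.34 and -0.24, and for input 1 over input 3 they were only 0.02 and 0.08. In genes whose longest transcript was at most 500 nt (98 genes), the median centred log2 ratio was 0.78 for input 1 over input 2, 0.17 for input 1 over input 3 and -0.59 for input 2 over input 3. In those over 2000 and up to 4000 nt (2125 genes) it was -0.25, -0.05 and 0.15. Genes of at most 500 nt held 18.1%, 13.1% and 15.9% of listed TPM, and those over 500 and up to 1000 nt held 37.7%, 33.2% and 37.8%. Most histones, the short ribosomal protein genes and several early zygotic genes lie in these bins, and the part that length had in their differences between inputs was not tested.

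**Figure D5:**
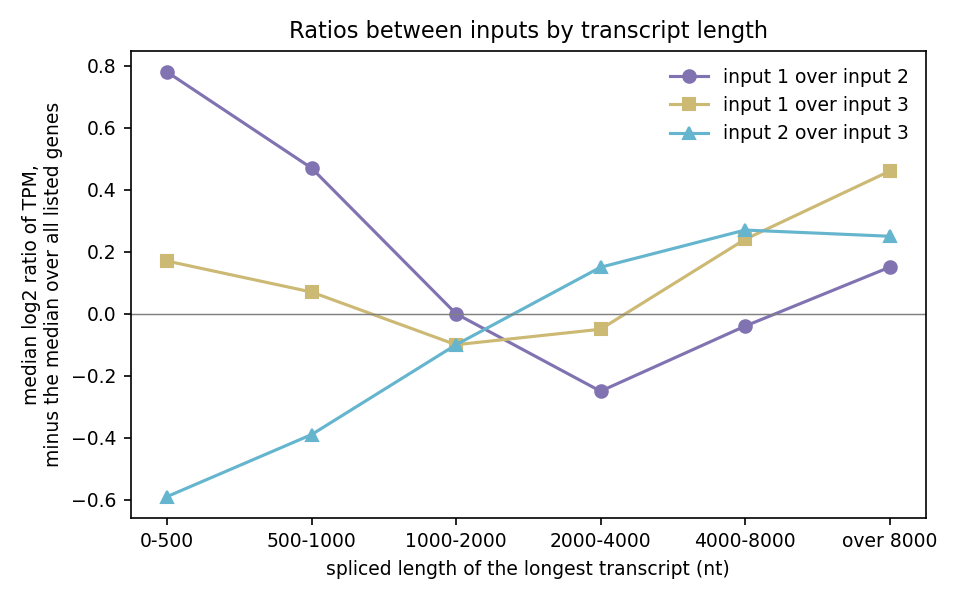
Median log2 ratio of TPM between inputs, minus the median over all listed genes (vertical axis), for genes grouped by the spliced length of their longest transcript (horizontal axis, nt), with 1 line per pair of inputs. For input 1 over input 2 it was 0.78 in the shortest genes and -0.25 between 2000 and 4000 nt, and for input 2 over input 3 it was -0.59 and 0.15 in the same bins.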

How the data were processed

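RNA of wild-type 0 to 3 h embryos was measured in 3 input libraries of a 9-library series. The authors deposited TPM per gene and library, the values analysed here. Normalized counts, a deposited signal not divided by transcript length, served as an alternative. The authors used Salmon 1.9.1, DESeq2 1.42.1 and Trim Galore 0.6.5 per the submitters' processing notes, which state no role for each tool. The genome build and annotation behind the values were not given in the sources used. For 99.4% or more of genes, the ratio of TPM to normalized count changed by less than 0.01 on the log2 scale between inputs, so the tables are not independent estimates.

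Groups come from the sample titles. Identifiers were matched to Ensembl release 115 (BDGP 6.54), which placed 6422 of 6440 genes. Its coordinates say nothing of the authors' build. Lengths and exons are those of the longest transcript, except that single-exon counts take a gene with any single-exon transcript. Overlapping genes and near-identical copies may share reads. Computation used Python 3.11.15, pandas 2.3.3 and numpy 2.4.6, and the summaries were checked on simulated data. Shares are sums over listed members divided by the listed total. No test, filter or pseudocount was applied to the values as reported. The lists and the genes named were chosen with earlier results of these data known. Named genes are the 20 highest by mean, list members (the leading ones and the lowest), the 10 largest and smallest median-centred ratios of each pair among genes of mean TPM at least 10, and those nearest the median and lowest. The other genes named, among the 100 highest and among those 4-fold higher in input 1, were chosen after their values were seen. Alternatives were normalized counts, leaving out the 10 leading genes, a minimum mean of 10 TPM, another denominator, the median, other scalings and pseudocounts, and leaving out each library.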

Additional observations from a re-analysis of the deposited data

How the results depend on the processing

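Of 60 recomputed values for 8 summaries, 41 stayed within 1 SD over the inputs or pairs (for the number of genes holding 50% of TPM, within 1.5 times). For summaries that are a mean share over the 3 inputs, leaving out 1 input or taking the median cannot move the value by 1 SD. Those alternatives were therefore bound to be among the 41 and say nothing of stability. With normalized counts in place of TPM, the early zygotic share was 0.141%, the maternal patterning share 1.67%, the ribosomal protein share 13.0%, the histone share 6.11%, the share of the 100 leading genes 26.6%, the genes holding 50% numbered 480, and 78.7% of genes lay within 2-fold. Without the 10 genes of highest mean TPM, these were 0.129%, 0.970%, 27.2%, 3.27%, 37.2% and 221 genes. Among genes of mean TPM at least 10, 76.4% lay within 2-fold and the lowest Spearman's rho was 0.869. Equal medians gave 78.9% within 2-fold. Leaving out 1 input gave 82.3% to 91.5% within 2-fold and a lowest rho of 0.915 to 0.977, both highest without input 1, and fewer libraries must raise the share. It left the early zygotic share at 0.0960% to 0.111%, the maternal share at 0.723% to 0.813%, the ribosomal protein share at 27.0% to 28.2%, the histone share at 14.9% to 17.1%, the share of the 100 leading genes at 46.7% to 49.6%, and the number holding 50% at 103 to 127. No paired analysis was possible because the inputs are 1 group and no test was run. Depth is unknown, so values near 1 TPM have an error known only from the spread of 3 libraries.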
